A study of Homo sapiens with 12 samples.

Results

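The lysosomal genes described here are 36 genes for hydrolases, their activators and membrane proteins of the lysosome, named as a list of known lysosomal genes, with earlier results of these data in view. All 36 were found once each among the 58174 genes measured. They comprise 11 glycosidases, 2 sulfatases, 12 peptidases, 7 genes of lipid breakdown and transport, and 4 membrane proteins. The cells are U87 (U-87 MG) and U118 (U-118 MG), long-established lines from human glioblastoma, and the drug is temozolomide (TMZ), which alkylates DNA and is standard treatment of that tumour. In each line, mRNA sequencing compared cells labelled sensitive with cells labelled resistant, the latter formed from cells exposed to TMZ at 50 µM, with 3 libraries in each of the 4 groups and 12 in all. Whether the drug was still present when the resistant cells formed or were sampled is not clear from the study's text. Per the study's methods, the cells of all groups came from a fraction sorted as CD133- and CD15- and were grown in DMEM/F12 with serum and BMP2, and the resistant cells are those its text calls aggregation cells. The labels do not say whether libraries of a group came from separate cultures, so the p-values may measure technical spread only.

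Lysosomes are acidic compartments in which hydrolases break down sugars, proteins and lipids delivered by endocytosis and autophagy. The enzymes are made in the endoplasmic reticulum, tagged with mannose 6-phosphate in the Golgi and sorted to the lysosome, and the MiT/TFE transcription factors drive many of their genes through an E-box motif. GLB1 encodes the beta-galactosidase whose activity, stained at a pH above the enzyme's optimum, is the usual mark of senescent cells, which is why these genes bear on a study that stained TMZ-treated cells for that activity. The study reported more staining over the first days of TMZ, and less in aggregation cells than in control cells at the same dose. Its text has the aggregation cells arise once some treated cells divided again, and a supplementary legend says they lacked senescent features. It also reported senescence-related gene sets as raised in the mRNA of aggregation cells. The values here are RNA levels of control and aggregation cells, not activity, and do not cover the first days of TMZ.

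Levels are given as TPM, in which reads are divided by transcript length and every library is brought to 1 shared total, so read depth is unknown and the errors are spreads between libraries. Changes are limma log2 fold changes of resistant over sensitive cells on the log2(TPM + 1) scale, which understates changes of low genes. A gene was called when its Benjamini-Hochberg adjusted p over all genes tested was under 0.05 and its log2 fold change was at least 1 in size. Several facts of the libraries stand beside every result. Over all genes tested, the middle log2 fold change lay at -0.24 for U87 and at -0.52 for U118. The mitochondrially encoded share of TPM was 12.9% to 16.9% for sensitive U87 libraries against 22.2% to 23.7% for resistant ones, and 7.42% to 19.7% against 13.2% to 29.9% for U118, and its part in the results was not tested beyond the recalculation without those genes. Across 16382 genes, the U118 resistant libraries had a Spearman's rho of 0.895 to 0.909 with the U87 sensitive, 0.907 to 0.913 with the U87 resistant and only 0.808 to 0.838 with the U118 sensitive libraries, so every U118 comparison sets unlike libraries against each other. CDKN1A, a senescence-linked cell cycle inhibitor, was called higher in both lines (log2 fold changes 2.65 in U87 and 3.04 in U118), whereas LMNB1, whose loss marks senescence, had -0.92 in U87 and was called lower in U118 at -1.50, a call lost with median-ratio scaling (-0.99). The mesenchymal glioma markers VIM and CD44 were at 311 TPM or more in every library, whereas GFAP and S100B, defining markers of astrocytic cells, were under 1 TPM in all 12 libraries. NES, at 5.76 to 24.1 TPM, was higher at an adjusted p under 0.05 in U87 (0.51) and U118 (0.98). It was called in U118 with median-ratio scaling (1.44). OLIG2 was at 1.45 to 4.45 TPM in U87 and at 0 to 1.05 TPM in U118 libraries. SOX2 was listed at 0 in every U87 library and did not exceed 0.550 TPM in U118. In these bulk samples, fewer cells of a type and less RNA per cell cannot be told apart.

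Of the 36 genes, 34 passed the filter of 1 TPM in 3 of 6 libraries in each line. CTSH and CTSZ, the cathepsins H and Z, did not pass in either, with no library above 0.579 TPM. In U87, 4 genes were called higher (CTSB, CTSF, CTSK and CTSL) and 2 lower (GLB1 and FUCA1), where 3.03% of all genes tested were called higher and 7.79% lower. In U118, 3 were called higher (CTSF, CTSK and CTSS) and 4 lower (FUCA1, FUCA2, GUSB and SGSH), against 8.64% and 26.6% of all genes. Thus CTSF, CTSK and FUCA1 were called in the same direction in both lines. In U118, CTSF passed the filter through its resistant libraries alone and FUCA2 through its sensitive libraries alone, so a difference in these 2 genes was built into their being tested. On the adjusted p alone, with no fold threshold, 11 were higher and 6 lower in U87 (9.43% and 29.7% of all genes), and 6 higher and 8 lower in U118 (12.2% and 39.1%). The median log2 fold change of the 34 was 0.12 in U87 and 0.02 in U118, which is 0.36 and 0.55 above the median of all genes tested. With median-ratio scaling, which sets the typical gene equal across the libraries of a line, 7 were called higher and 1 lower in U87 (4.97% and 3.81% of all genes), and 7 higher and 2 lower in U118 (14.7% and 13.7%).

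**Figure D1:**
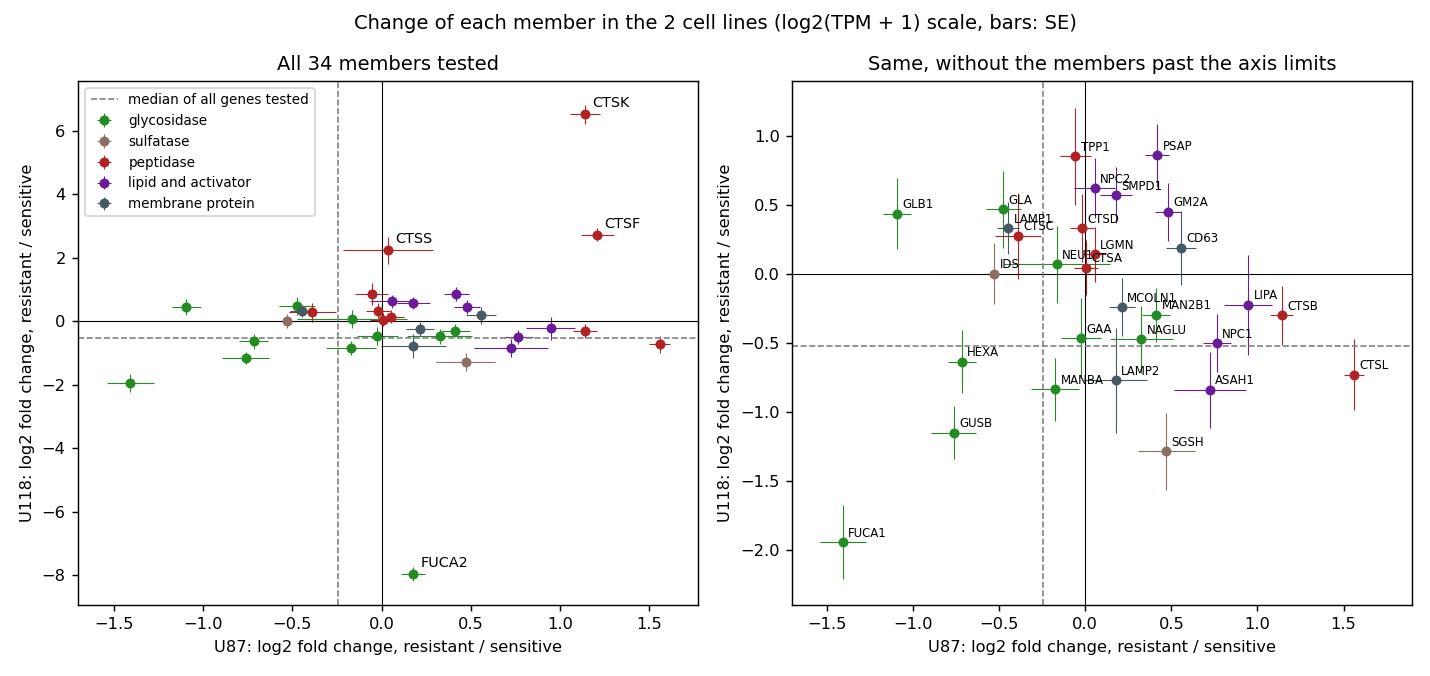
Log2 fold change of each of the 34 genes tested in U87 (horizontal axis) and in U118 (vertical axis), resistant over sensitive, on the log2(TPM + 1) scale, coloured by class, with bars for the SE and dashed lines at the median of all genes tested. The left panel holds all 34 and the right panel leaves out CTSK, CTSF, CTSS and FUCA2, which lie at 6.52, 2.73, 2.23 and -7.97 in U118.

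The levels spanned a wide range. In U87 sensitive cells PSAP, the precursor of the saposins that help degrade sphingolipids, and CD63, a tetraspanin of late endosomes, led at 2587 and 2473 TPM on average, and their libraries overlapped. The aspartic protease CTSD followed at 1196 TPM and CTSB at 914 TPM. CD63 led in the other 3 groups, at 3629 TPM in U87 resistant, 1505 in U118 sensitive and 1693 in U118 resistant cells, and in both resistant groups its libraries overlapped those of PSAP. At the low end of U87 sensitive cells stood FUCA1 at 4.45 TPM and CTSS at 7.35 TPM, above the untested CTSH and CTSZ.

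Among the glycosidases, which remove sugars from glycoproteins, glycolipids and glycosaminoglycans, no gene was called higher in either line, and at an unadjusted p under 0.05 limma placed 2 of the 11 higher and 5 lower in U87 (11.8% and 36.7% of all genes tested), and 0 higher and 5 lower in U118 (13.7% and 44.4%). GLB1 (ENSG00000170266, chromosome 3, 32996608 to 33097230, GRCh38, minus strand) was at 189.9, 163 and 181 TPM in U87 sensitive libraries and at 79.7, 84.0 and 84.5 TPM in U87 resistant libraries. Every resistant U87 library lay below every sensitive one, and GLB1 fell, with a log2 fold change of -1.09 (SE 0.08, adjusted p = 0.000165), in the cells in which CDKN1A rose. The fall passed the p threshold but was under the fold threshold with median-ratio scaling (-0.82, adjusted p = 0.00283) and without the mitochondrially encoded genes (-0.96, adjusted p = 0.000462). In U118, GLB1 was at 70.6, 82.2 and 60.2 TPM in sensitive and at 124, 102 and 69.8 TPM in resistant libraries. These groups overlapped, and the change of 0.44 (SE 0.26, adjusted p = 0.177) was not called. It passed the p threshold upward, still under the fold threshold, with median-ratio scaling (0.95, adjusted p = 0.00676) and without the mitochondrially encoded genes (0.64, adjusted p = 0.0341). TMPPE, which overlaps GLB1 on the same strand, had means of 2.13 TPM in sensitive and 1.01 TPM in resistant U87 cells.

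FUCA1 and FUCA2 encode the lysosomal and the secreted alpha-L-fucosidase. FUCA1 (chromosome 1) was at 4.27, 4.72 and 4.36 TPM in U87 sensitive and at 1.21, 0.947 and 1.01 TPM in U87 resistant libraries, a log2 fold change of -1.41 (SE 0.13, adjusted p = 0.000401). In U118 it was at 15.1, 16.5 and 14.8 TPM in sensitive and at 4.76, 2.19 and 3.24 TPM in resistant libraries, a change of -1.95 (SE 0.27, adjusted p = 0.00043). The groups did not overlap in either line, the ratio of the means was 4.22 in U87 and 4.56 in U118, and both calls also held with median-ratio scaling.

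FUCA2 (chromosome 6, 143494811 to 143511690, minus strand) was at 276, 253 and 279 TPM in U87 sensitive and at 293, 306 and 314 TPM in U87 resistant libraries, a difference of 0.18 (adjusted p = 0.0796) that was not called. With median-ratio scaling FUCA2 passed the p threshold upward in U87 (0.45, adjusted p = 0.0242). It also did so without the mitochondrially encoded genes (0.31, adjusted p = 0.0236), both times under the fold threshold. In U118 it was at 279, 269 and 211 TPM in sensitive libraries and was listed at 0.0287 TPM in 1 resistant library and at 0 in the other two. The change there was -7.97 on the log2(TPM + 1) scale (SE 0.22, adjusted p = 1.66e-07), so a gene that was abundant in the other 3 groups was nearly absent from U118 resistant libraries. In this gene those libraries were unlike both U87 groups. Of the 3 tested genes on either side, VDAC1P8, a pseudogene that overlaps FUCA2 on the other strand, PHACTR2 and ADAT2 were called lower (-2.46, -1.87 and -1.002), while PEX3 (-0.29), LTV1 (-0.56) and ENSG00000257065 (0.23) were not called. ADAT2 was only just past the fold threshold (adjusted p = 0.0384). Among all genes tested in U118, 26.6% were called lower and the median change was -0.52. VDAC1P8, like FUCA2, passed the filter in U118 through its sensitive libraries alone. Whether the counting used strand is not stated, so reads of FUCA2 and VDAC1P8 cannot be told apart.

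GUSB, the beta-glucuronidase, was at 79.5, 89.0 and 81.3 TPM in U118 sensitive and at 36.4, 34.01 and 40.6 TPM in U118 resistant libraries, a fall of -1.15 (SE 0.19, adjusted p = 0.00127). In U87 the libraries were at 66.1, 67.1 and 89.3 TPM and at 42.0, 41.6 and 45.1 TPM, with -0.76 (adjusted p = 0.00421), past the p threshold only. The call in U118 was lost with median-ratio scaling (-0.64) and without the mitochondrially encoded genes (-0.96). The other 7 glycosidases were not called in either line. HEXA, the alpha subunit of the hexosaminidase that clears GM2 ganglioside, passed the p threshold downward in both lines (-0.72 and -0.63), and GLA, the alpha-galactosidase, did so in U87 (-0.48). MAN2B1, the alpha-mannosidase, passed it upward in U87 (0.41) and MANBA, the beta-mannosidase, downward in U118 (-0.84). With median-ratio scaling HEXA in U118 (-0.12), GLA in U87 (-0.20) and MANBA in U118 (-0.36) no longer passed it. GLA in U118 (0.98, adjusted p = 0.00204) and NAGLU in U87 (0.60, adjusted p = 0.0348) then passed it upward. In U118, GLA was at 61.6, 60.2 and 55.5 TPM in sensitive and at 127, 62.9 and 69.4 TPM in resistant libraries. RPL36A-HNRNPH2 overlaps GLA on the other strand, with means of 76.9 and 96.6 TPM there, and without known strand their shared reads are uncertain. In TPM as deposited, GAA, NAGLU and NEU1 passed the p threshold in neither line.

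**Figure D2:**
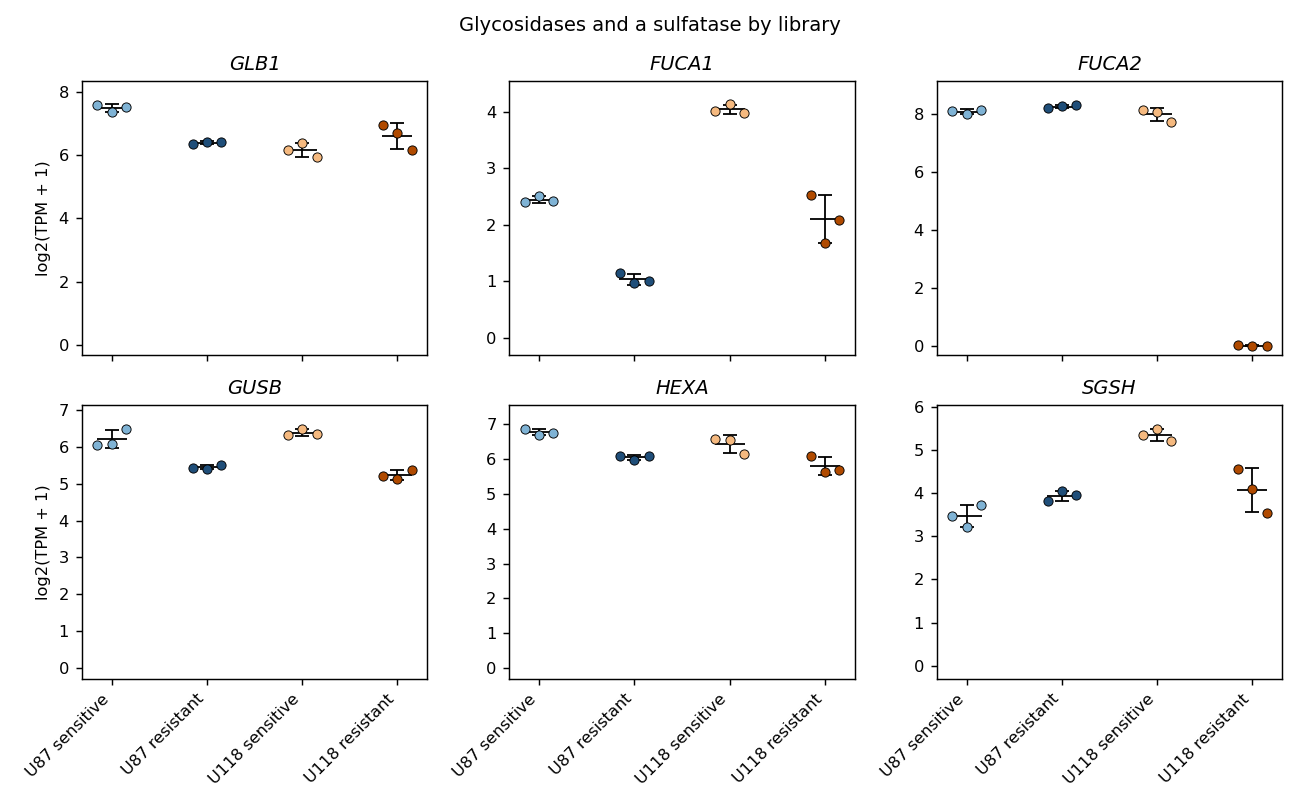
Level of 5 glycosidases and the sulfatase SGSH in every library, as log2(TPM + 1), with points for the 3 libraries of each group and bars for the mean and SD. FUCA1 is lower in resistant cells of both lines, GLB1 is lower in U87 resistant cells, and FUCA2 is at or near 0 in U118 resistant cells only among the 4 groups.

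The sulfatases SGSH and IDS act on heparan sulfate, and IDS also on dermatan sulfate. SGSH was at 40.01, 44.1 and 35.8 TPM in U118 sensitive and at 22.5, 16.1 and 10.7 TPM in U118 resistant libraries, and it fell by 1.28 on the log2 scale (SE 0.28, adjusted p = 0.00494), a call that was lost with median-ratio scaling (-0.79). SLC26A11 overlaps SGSH on the other strand and had means of 8.86 and 5.66 TPM in the same groups, and without known strand the split of their shared reads is uncertain. In U87 SGSH was at 10.1, 8.22 and 12.3 TPM in sensitive and at 13.1, 15.5 and 14.5 TPM in resistant libraries, with 0.47 (adjusted p = 0.0616). IDS was not called in either line, and its U87 sensitive libraries ranged from 56.6 to 136 TPM.

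The peptidases held all the calls toward higher levels. CTSL, CTSB, CTSK and CTSF are cysteine proteases of the papain family. CTSL was at 185, 180.0 and 191 TPM in U87 sensitive and at 564, 534 and 545 TPM in U87 resistant libraries, a log2 fold change of 1.56 (SE 0.06, adjusted p = 2.58e-05). CTSB, among the most abundant of these proteases, was at 983, 862 and 897 TPM in U87 sensitive and at 2068, 1936 and 2040 TPM in U87 resistant libraries, with 1.14 (SE 0.07, adjusted p = 8.64e-05). The resistant libraries lay well above the sensitive ones for both genes, by 2.96 times for CTSL and 2.20 times for CTSB on the means. A sense intronic transcript within CTSB, AC025857.2, had means of 9.42 and 34.2 TPM in the same groups.

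Neither protease was called in U118. CTSL was at 900.1, 789 and 740.1 TPM in sensitive and at 652, 365 and 483 TPM in resistant libraries, with -0.73 (adjusted p = 0.0405), past the p threshold downward but not the fold threshold, and with median-ratio scaling it did not pass the p threshold either (-0.21, adjusted p = 0.403). CTSB was at 992, 1084 and 877 TPM and at 870.3, 754 and 769 TPM, with -0.30 (adjusted p = 0.258), and its sign turned with median-ratio scaling (0.22). In TPM as deposited, every resistant library lay below every sensitive one for CTSL in U118, and above it in U87.

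CTSK, the collagen-degrading protease known from osteoclasts, had the largest rise of the 34 genes in U118. It was at 1.89, 1.70 and 1.62 TPM in U118 sensitive and at 398, 175 and 222 TPM in U118 resistant libraries, a change of 6.52 (SE 0.30, adjusted p = 8.66e-07) and a ratio of means of 153. In U87 it was already at 451, 392 and 476 TPM in sensitive cells and reached 1006, 965 and 930.2 TPM in resistant cells, with 1.14 (SE 0.08, adjusted p = 0.000166). CTSF was at 19.2, 17.3 and 17.3 TPM in U87 sensitive and at 43.6, 42.6 and 42.1 TPM in U87 resistant libraries (1.21, SE 0.09, adjusted p = 0.000186). In U118 CTSF was under 1 TPM in sensitive libraries, at 0.439, 0.434 and 0.280, and at 9.20, 6.79 and 8.63 TPM in resistant libraries (2.73, SE 0.21, adjusted p = 1.11e-05).

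CTSS, a protease that antigen-presenting cells use to process the invariant chain, lies next to CTSK on chromosome 1. It was at 2.67, 2.66 and 1.945 TPM in U118 sensitive and at 31.99, 10.8 and 9.46 TPM in U118 resistant libraries (2.23, SE 0.41, adjusted p = 0.00217), with resistant replicate 1 well above the others. In U87 its libraries overlapped, at 4.76, 10.5 and 6.83 TPM and at 6.62, 7.68 and 7.40 TPM (0.03, adjusted p = 0.928). Of the other 5 tested genes within 3 places of CTSK, none was called, with changes from -0.85 for ARNT to -0.20 for CERS2. Markers of macrophages, which are rich in cathepsins S and K, were looked at beside these values. Of 12 such markers, AIF1, TYROBP, C1QA, C1QB and C1QC were listed at 0 in all 12 libraries, and PTPRC did not exceed 0.0689 TPM. CSF1R (1.34 to 1.43 TPM in U118 sensitive, 9.47 to 15.2 TPM in U118 resistant libraries) and FCER1G (0.396 to 0.860 and 3.04 to 5.67 TPM) were called higher in U118, where CTSS and CTSK rose. FCER1G passed the filter there through its resistant libraries alone, so a difference was built into its being tested. ITGAM was at 0 to 0.175 TPM in U118 sensitive and at 0.659 to 1.45 TPM in U118 resistant libraries, without overlap, and no other macrophage marker exceeded 1.45 TPM in any library. The 12 markers summed to 2.64 to 3.49 TPM in U118 sensitive and to 14.3 to 23.4 TPM in U118 resistant libraries, and to 6.43 to 8.14 and 6.83 to 6.99 TPM in U87. Their part in the CTSS and CTSK values was not tested.

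None of the remaining peptidases was called in either line in TPM as deposited. The tripeptidyl peptidase TPP1 had 0.85 in U118 (adjusted p = 0.068), with sensitive libraries at 80.6 to 161 TPM and resistant ones at 124 to 268 TPM, and was called higher there with median-ratio scaling (1.37, adjusted p = 0.0351). CTSA, which protects the GLB1 and NEU1 proteins in a complex, had 0.01 in U87 and 0.05 in U118. PLTP overlaps CTSA on the other strand, with means of 57.8 TPM in sensitive and 115.6 TPM in resistant U118 cells, and their shared reads are uncertain. CTSD had -0.02 and 0.33 (0.85 in U118 with median-ratio scaling, adjusted p = 0.0516), and the asparaginyl endopeptidase LGMN had 0.05 and 0.14. CTSC, which activates serine proteases of immune cells, had -0.39 and 0.28 (0.78 in U118 with median-ratio scaling, adjusted p = 0.0116).

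The 7 genes of lipid breakdown and transport all had positive log2 fold changes in U87, from 0.06 for NPC2 to 0.95 for LIPA, and none was called, since none reached a log2 fold change of 1. Of these, 5 passed the p threshold upward in U87 (9.43% of all genes tested), and the same number by limma at an unadjusted p under 0.05 (11.8%). LIPA, the acid lipase that hydrolyses cholesteryl esters, was at 29.3, 41.7 and 37.2 TPM in sensitive and at 69.7, 65.0 and 74.7 TPM in resistant U87 libraries (0.95, adjusted p = 0.00233). NPC1, the membrane protein that exports cholesterol from the lysosome, was at 253, 239 and 265 TPM and at 451, 389.8 and 449.8 TPM (0.76, adjusted p = 0.000616). RMC1 overlaps NPC1 on the other strand, with means of 44.96 and 54.0 TPM there, and their shared reads are uncertain in the same way. ASAH1, the acid ceramidase, was at 55.8, 79.6 and 78.7 TPM and at 88.4, 136 and 133 TPM (0.72, adjusted p = 0.0314). GM2A, the activator that presents GM2 ganglioside to hexosaminidase, had 0.48, and PSAP had 0.42. With median-ratio scaling LIPA, ASAH1 and NPC1 were called higher.

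In U118 none of the 7 was called. At limma's unadjusted p under 0.05, 3 were higher and 2 lower (13.7% and 44.4% of all genes tested). PSAP (0.86), NPC2 (0.62) and the acid sphingomyelinase SMPD1 (0.57) passed the p threshold upward, and with median-ratio scaling all 3 were called higher (1.38, 1.14 and 1.08) and 6 of the 7 had positive values. ASAH1 passed it downward, from 29.5, 33.9 and 35.7 TPM in sensitive to 25.7, 12.4 and 17.96 TPM in resistant libraries (-0.84, adjusted p = 0.0311), and without resistant replicate 1 it was called lower (-1.09, adjusted p = 0.00202). With median-ratio scaling it did not pass the p threshold (-0.34, adjusted p = 0.169). NPC1 was at 219, 259 and 241 TPM and at 202, 143 and 166 TPM (-0.50, adjusted p = 0.0743), with a value near 0 after median-ratio scaling (0.0144). NPC2, the soluble partner that hands cholesterol to NPC1, was at 199 to 235 TPM in sensitive and at 268 to 387 TPM in resistant libraries.

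None of the 4 membrane proteins was called in either line by limma. At limma's unadjusted p under 0.05, 2 were higher and 1 lower in U87 (11.8% and 36.7% of all genes tested). In U118 it was 0 either way (13.7% and 44.4%). LAMP1, a glycoprotein that lines the lysosomal membrane, was at 202 to 217 TPM in sensitive and 146 to 158 TPM in resistant U87 libraries and passed the p threshold downward (-0.45, adjusted p = 0.00233), though not with median-ratio scaling (-0.17, adjusted p = 0.296). In U118 it had 0.33 (adjusted p = 0.164), and with median-ratio scaling it passed the p threshold upward there (0.85, adjusted p = 0.0134). CD63 passed the p threshold upward in U87 (0.56, adjusted p = 0.00282). In TPM as deposited, LAMP2, which serves in chaperone-mediated autophagy, and the calcium channel MCOLN1 passed it in neither line. With median-ratio scaling both passed it upward in U87 (0.45 and 0.49).

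The classes were also summed as shares of all TPM. Together the 36 genes held 1.13% to 1.24% of U87 sensitive and 1.52% to 1.63% of U87 resistant TPM, and 0.639% to 0.801% and 0.730% to 0.870% in U118. The 8 papain-family cathepsins took 0.151% to 0.169% in U87 sensitive and 0.351% to 0.372% in U87 resistant libraries, while their U118 ranges of 0.165% to 0.193% and 0.134% to 0.202% overlapped. In TPM as deposited, the 11 glycosidases took less in resistant than in sensitive cells in both lines, 0.0949% and 0.0794% on average in U87, and 0.0750% and 0.0430% in U118, where FUCA2 alone averaged 253 TPM in sensitive cells, of 749.6 TPM for the class. Without the mitochondrially encoded genes, the U87 glycosidase ranges overlapped, at 0.0998% to 0.120% in sensitive and 0.0963% to 0.112% in resistant libraries, and the 36 genes held 0.796% to 0.876% in U118 sensitive against 1.002% to 1.05% in U118 resistant libraries. These are descriptions of summed levels with no test.

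**Figure D3:**
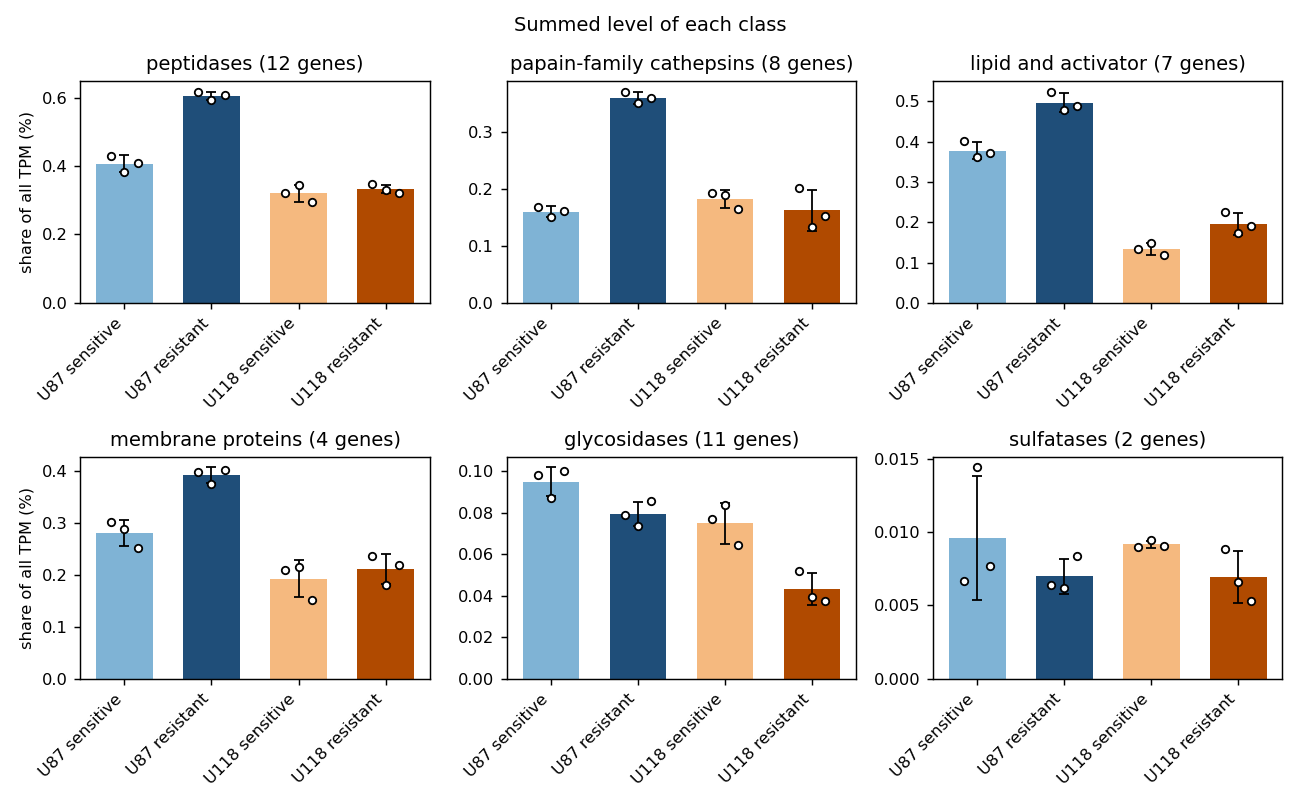
Share of all TPM taken by each class, in percent, with bars for the mean of 3 libraries, error bars for the SD and points for the libraries. The papain-family cathepsins have a mean of 0.161% in U87 sensitive and 0.361% in U87 resistant cells, and the glycosidases are lowest in U118 resistant cells, at 0.0430%.

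The difference between the lines was tested as the U118 change minus the U87 change over all 12 libraries. Of the 34 genes, 4 were called higher (GLB1, CTSF, CTSK and CTSS) and 6 lower (FUCA2, SGSH, CTSB, CTSL, ASAH1 and NPC1), where 12% of all genes tested were called higher and 18.5% lower. Both counts lay near those shares. GLB1 differed by 1.53 (SE 0.27, adjusted p = 0.000755), with a fall in U87 and no call in U118. CTSL differed by -2.29 (SE 0.26, adjusted p = 1.79e-05) and CTSB by -1.44 (SE 0.19, adjusted p = 6.92e-05), both with a rise in U87 alone. CTSK rose in both lines and differed by 5.38 (SE 0.33, adjusted p = 8.04e-08). FUCA1 fell in both, and its difference of -0.54 (SE 0.30) was not called (adjusted p = 0.175). With median-ratio scaling GLA (1.18) and LAMP1 (1.02) were called higher as well.

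Because U118 resistant libraries ranked closer to U87 libraries, each gene was also placed by whether its mean in U118 resistant cells lay nearer that of U87 sensitive or that of U118 sensitive cells. Levels across the separately normalized tables of the lines are side-by-side descriptions. Of the 34 genes, 15 (44.1%) lay nearer U87 sensitive cells, against 65.6% of all genes tested. Where the sensitive lines differed by at least 1 on the log2 scale, it was 6 of 14 (42.9%), against 74.4% of 6054 genes. CTSK, CTSF and CTSS, which rose in U118, were among the genes nearer U87, as were FUCA1 and SGSH, which fell there. Of those 14, GLB1, CTSA, CTSL, LGMN, LIPA, PSAP, ASAH1 and NPC2 lay nearer U118 sensitive cells.

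The rest of the lysosomal system is set against the shares of all genes called higher and lower, 3.03% and 7.79% in U87 and 8.64% and 26.6% in U118. Of 21 further hydrolases tested, 1 was called lower in U87 (AGA, the aspartylglucosaminidase, -1.10), and in U118 1 was higher (ACP5, an acid phosphatase, 1.18) and 3 lower, led by IDUA, the iduronidase, at -1.63. Of 14 further membrane proteins, TMEM192 was called lower in U87 (-1.16) and LAPTM4B in U118 (-1.49). Of 17 subunits of the V-ATPase, the proton pump that acidifies the lysosome, none was called in U87. At limma's unadjusted p under 0.05, 2 were higher and 4 lower there (11.8% and 36.7% of all genes tested). In U118, 2 were called higher, led by ATP6V0E2 at 2.52, and 6 with median-ratio scaling (14.7% of all genes). Of the genes for mannose 6-phosphate tagging and sorting, none of 12 was called in U87. At limma's unadjusted p under 0.05, 1 was higher and 3 lower there, against the same 11.8% and 36.7%. Of 13 in U118, AP1S1 was called higher (1.60) and 3 were called lower, led by NAGPA (-1.21). With median-ratio scaling the calls of AGA (-0.84), TMEM192 (-0.93), LAPTM4B (-0.995) and NAGPA (-0.73) were lost, none of the sorting genes was called lower in U118, and the further hydrolases there had 3 higher and 1 lower.

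Of the MiT/TFE regulators, TFEB, a main activator of lysosomal genes, was at 8.86, 7.66 and 8.43 TPM in U87 sensitive and at 7.13, 6.28 and 5.83 TPM in U87 resistant libraries (-0.33, adjusted p = 0.104). In U118 it was at 1.08, 1.71 and 1.39 TPM and at 6.04, 4.33 and 6.29 TPM, and was called higher (1.45, adjusted p = 0.000899). TFE3 had -0.98 in U87 and 0.91 in U118, each past the p threshold only, and the lines differed by 1.89 (adjusted p = 1.74e-06). MITF had -0.52 and -0.74 and was not called, and FLCN, which restrains TFEB and TFE3, was called lower in U118 (-1.13). With median-ratio scaling TFE3 was called higher in U118 (1.42) and the call of FLCN was lost (-0.63).

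Cystatins inhibit papain-family cathepsins. CSTB, the intracellular cystatin B, was at 428, 389.9 and 419 TPM in U87 sensitive and at 632, 669.6 and 629 TPM in U87 resistant libraries, past the p threshold but not called (0.64, adjusted p = 0.000463). In U118 it was at 198, 209 and 232 TPM and at 568, 1012 and 1068 TPM and was called higher (1.99, adjusted p = 0.000411). CSTA was called lower in U87 (-1.10), a call lost with median-ratio scaling (-0.92), and higher in U118 (1.44). CST3, the abundant secreted cystatin C, had -0.31 and -0.69 and was not called. CST1, the salivary cystatin with the largest fall of this list in U118 (-2.14), was listed at 0 in all U87 libraries. In U118 it passed the filter through its sensitive libraries alone, so a difference was built into its being tested.

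RefSeq start-site windows (GRCh38.p14, 250 bases before and 50 after a start) were searched for the E-box CACGTG and its longer form TCACGTGA, which contains it, both reading the same on either strand. The table holds windows for 25 of the 36 genes, and 22 of them have exactly 1, so shares were taken over genes with 1 window. CACGTG was in 7 of the 22 (31.8%), in CTSA, CTSD, CTSF, GAA, LAMP1, MCOLN1 and NEU1, and in 7.28% of the 22114 genes with 1 window. TCACGTGA was in 4 of the 22 (18.2%) and in 1.02% of all. Of 28 further hydrolase, membrane protein and V-ATPase genes with 1 window, 6 held CACGTG (21.4%) and 3 held TCACGTGA (10.7%). The 7 genes with CACGTG had a median log2 fold change of -0.02 in U87 and 0.07 in U118, and the 13 tested genes without it had -0.06 and 0.00. Windows are printed for FUCA1, which fell in both lines, and for FUCA2, which fell in U118 alone. They are also printed for CTSF, which rose in both lines, and for CTSD, which was called in neither. The start sites used for CTSF and CTSD lie 235 and 646 bases downstream of the outermost annotated GENCODE start of each gene. Those of GM2A, IDS, CTSH and CTSA, not printed, lie 41035, 15790, 4528 and 1191 bases downstream of it. The counts by motif include these windows. Capitals mark CACGTG, and a match is a description of the letters.
FUCA1, chr1:23868241-23868540, minus strand: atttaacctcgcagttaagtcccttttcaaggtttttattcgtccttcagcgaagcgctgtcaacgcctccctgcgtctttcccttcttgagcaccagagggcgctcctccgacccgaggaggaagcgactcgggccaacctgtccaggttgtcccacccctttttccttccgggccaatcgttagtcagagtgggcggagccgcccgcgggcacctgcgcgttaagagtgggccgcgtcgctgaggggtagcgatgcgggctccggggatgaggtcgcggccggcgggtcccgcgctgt
FUCA2, chr6:143511671-143511970, minus strand: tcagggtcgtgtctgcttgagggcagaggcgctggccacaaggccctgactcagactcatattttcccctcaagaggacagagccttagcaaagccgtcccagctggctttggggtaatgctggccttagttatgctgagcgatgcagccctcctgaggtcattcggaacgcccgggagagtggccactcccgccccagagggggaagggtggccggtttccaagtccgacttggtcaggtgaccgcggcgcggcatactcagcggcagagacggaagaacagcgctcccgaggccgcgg
CTSF, chr11:66568557-66568856, minus strand: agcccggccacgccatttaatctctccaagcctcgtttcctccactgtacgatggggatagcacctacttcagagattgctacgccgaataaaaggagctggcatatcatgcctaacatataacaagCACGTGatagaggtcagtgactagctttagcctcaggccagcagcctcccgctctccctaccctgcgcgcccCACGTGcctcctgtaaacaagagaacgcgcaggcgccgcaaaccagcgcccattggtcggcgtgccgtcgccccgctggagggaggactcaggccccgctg
CTSD, chr11:1763878-1764177, minus strand: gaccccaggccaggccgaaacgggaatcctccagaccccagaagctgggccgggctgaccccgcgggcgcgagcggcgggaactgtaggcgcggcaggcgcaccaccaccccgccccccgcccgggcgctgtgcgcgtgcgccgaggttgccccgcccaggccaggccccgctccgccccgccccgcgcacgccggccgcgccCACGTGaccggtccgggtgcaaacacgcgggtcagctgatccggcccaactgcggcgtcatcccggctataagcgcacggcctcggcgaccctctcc
CTSF holds the motif at 123 and 51 bases before its start and CTSD at 47 bases before it, while the FUCA1 and FUCA2 windows do not hold these letters.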

How the data were processed

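The mRNA-seq covered 12 libraries, 3 of sensitive and 3 of resistant cells of U87 and of U118, grouped by the sample labels; the study's text calls them control and aggregation cells. The authors deposited TPM values per gene, 1 table per cell line, from mRNA libraries. The submitters' processing notes name FastQC 0.11.2, Trimmomatic 0.36, HISAT2 2.0, bedtools 2.26.0 and GRCh38; the tool that computed TPM, the annotation and the strandedness are not given in the sources used here. Positions are those of GENCODE release 29.

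Within each table, limma 3.58.1 (R 4.3.3) was run on log2(TPM + 1) with trended empirical Bayes moderation. A gene entered if 3 or more of the 6 libraries reached 1 TPM, which left 13845 in U87 and 15527 in U118; for the difference between lines, 3 of the 12 were asked for (16382 genes). The fit was tested on simulated data. No exact permutation test was used for single genes, since 3 libraries against 3 allow no two-sided p under 0.1. The replicate numbers were not taken as pairs in the main fits. Deviations of same-numbered libraries correlated at -0.0671 to 0.0113 (U87) and 0.0512 to 0.139 (U118). Those of different-numbered libraries correlated at -0.0579 to 0.0772 (U87) and -0.108 to 0.0397 (U118). In U118 the same-numbered values were thus the higher ones, so pairing is not excluded there, and a replicate block was run as an alternative.

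The members and the further lists were chosen with earlier results of these data known. Named genes were GLB1, members called in either line or in the difference, the called gene with the largest rise and fall of each further list, TFEB, TFE3, MITF, CST3, CSTB, CDKN1A and LMNB1. Members outside this rule, marker genes and neighbours of FUCA2 and CTSK were named to account for the lists, after their values were seen. Alternatives were 2 other pseudocounts (0.1 and 0.01), no filter, a filter at a mean of 10 TPM, median-ratio scaling, TPM without mitochondrially encoded genes, a replicate block, untrended moderation, no fold threshold, and each library left out. Promoter windows were counted over genes with exactly 1 window, a rule set after several were seen for some genes. Protein features were planned and not analysed here. Python 3.11.15 with pandas 2.3.3 and matplotlib 3.10.9 served for tables and figures.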

Additional observations from a re-analysis of the deposited data

Results flagged for a closer look

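The change on TMZ resistance differed between the lines, by the test of the difference itself, for 10 of the 34 genes tested, 4 higher and 6 lower, against 12% and 18.5% of all genes tested. Both counts lay near those shares, so the members were not set apart from other genes by their number. The U118 change minus the U87 change was 1.53 for GLB1, 1.52 for CTSF, 5.38 for CTSK and 2.20 for CTSS on the log2(TPM + 1) scale. It was -8.14 for FUCA2, -1.76 for SGSH, -1.44 for CTSB, -2.29 for CTSL, -1.56 for ASAH1 and -1.27 for NPC1. The median of all genes tested for this difference was -0.24. The U118 resistant libraries ranked closer to the U87 than to the U118 sensitive libraries, and its part in these differences was not tested.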

How the results depend on the processing

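In U87 the 4 members called higher became 7 with median-ratio scaling and 11 with no fold threshold, and the 2 called lower became 1 with a mean of at least 10 TPM, with median-ratio scaling and without mitochondrially encoded genes, and 6 with no fold threshold. In U118 the 3 called higher became 1 with a mean of at least 10 TPM, 7 with median-ratio scaling and 6 with no fold threshold, and the 4 called lower became 2 with median-ratio scaling and 8 with no fold threshold. With no filter on low values, which adds genes near 0 to the median of all genes, the members' relative median was 0.0942 in U87 and 0.0507 in U118. The sign of CTSS in U87, never called, turned without sensitive replicate 1 (-0.20) and without resistant replicate 2 (-0.0042), with a range of -0.20 to 0.29 over the libraries left out, and median-ratio scaling turned CTSB (0.22) and NPC1 (0.0144) in U118. The 10 members called in the difference ranged from 9 to 13 over all alternatives. With libraries left out in turn, the counts were 4 to 5 higher and 2 lower in U87, 2 to 4 higher and 3 to 6 lower in U118, with 6 lower without resistant replicate 1. CTSF was not tested in U118 without any 1 resistant library, nor FUCA2 without any 1 sensitive library, since 3 libraries at 1 TPM are required. With the replicate number as a block, the counts stayed at 4 and 2 in U87 and 3 and 4 in U118, and the difference gave 11; in U118, though not in U87, each library correlated best with its own number. TPM keeps no depth, so values near 0 have no detection limit.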
